A study of Mus musculus with 17 samples.

Results

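The comparison set the 4 second-generation tumour lines of the study (TL2) against 3 cultures of mesenchymal stem cells (MSC) with the same p53 allele, chosen by their titles from 17 libraries in all. MSC are stromal cells of the bone marrow that can form bone, fat and cartilage. The MSC came from marrow of C57BL/6 mice with the R172H knock-in allele of p53, a missense form of this tumour suppressor, and every library compared here carries this allele. First-generation lines were grown from tumours that such MSC formed. When those lines were injected they formed tumours again, and TL2 are the lines grown from these later tumours. The labels give passages 2 to 20 for all 7 libraries, no treatment, and no age of the animals. They name neither the host of the tumours nor separate animals or cultures behind the libraries of 1 group, so a p-value here weighs a difference against library-to-library spread, part of which may be technical.

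Titles carry the numbers 1, 2 and 3. The libraries are called MSC 1, 2 and 3 and TL2 1, 2a, 2b and 3 here, since 2 TL2 lines share the number 2. MSC grew in MSC medium, and tumour-derived cells over an agar coat in medium with LIF, leukaemia inhibitory factor, so the step from MSC to tumour line and the change of culture cannot be told apart. Total counts were 12643520, 13024820 and 13783786 in MSC 1 to 3 and 15962341, 15389268, 13901362 and 14872042 in TL2 1, 2a, 2b and 3. Levels are counts-per-million values (CPM), with library sizes adjusted by the trimmed-mean method of edgeR (TMM), always in this order of libraries, and log2 changes are TL2 relative to MSC with a standard error (SE); "fell by" and "rose by" are in these units. A gene was called where the quasi-likelihood test of edgeR gave an adjusted p under 0.05, with Benjamini-Hochberg adjustment over 12653 tested genes.

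As background, MSC in culture hold a mesenchymal programme: they secrete collagens and microfibrils, keep a contractile cytoskeleton of actin and myosin, express the transcription factors of the limb and body wall, and stay primed for fat and bone through factors such as Pparg and Runx2. Sarcoma cells that arise from MSC can keep, lose or redirect parts of it. The R172H protein cannot activate most p53 target genes.

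Second-generation lines resembled each other less than MSC did. Pearson correlations of log2 CPM across the tested genes were 0.957 to 0.970 between MSC libraries, 0.947 between TL2 2a and 2b, 0.847 to 0.892 between the other TL2 pairs and 0.771 to 0.864 between MSC and TL2. TL2 3 correlated with the other TL2 lines at 0.847 to 0.853, the lowest values within the group. Genes are not independent replicates, and all points share the same libraries.

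EdgeR called 190 genes higher in TL2, 1.5% of those tested, and 412 lower, 3.26%, which is 4.76% in either direction. The libraries of both groups did not overlap for 602 of these 602 genes. Without overlap were 1515 tested genes higher in TL2 (12%) and 1877 lower (14.8%), whether called or not. The calls rest on few libraries: 3 genes were called higher and 38 lower without MSC 1, 43 and 106 without MSC 2, and 7 and 39 without MSC 3. Leaving out TL2 3 instead gave 374 and 694. In all 7 fits that left out 1 library, 3 genes stayed higher, Efna1, Kcnn4 and Ntn1, and 32 stayed lower. Of the genes named here, the lower ones called in all 7 were Fbn2, Eya2, Pitx1, Lpl, Rspo2, Sfrp1, Mylk, Dkk3, Cdh11, Rps4y2, Col11a1, Meg3, Adam23, Rian, Cxcl12, Efnb1, Egfr, Svep1, Tbx18 and Plod2. Other named genes lost their call without at least 1 library.

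Trp53, the gene of p53, checks the shared genotype in its level only. It stood at 258, 199.9 and 194 CPM in MSC and 305, 269, 174 and 230.5 CPM in TL2, with a log2 change of 0.17 (SE 0.23, adjusted p = 0.680). The groups overlapped. Counts per gene do not show the allele.

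Markers that label MSC were kept in part. Of 24 mesenchymal stromal markers, all tested, 0 were called higher and 2 lower, and 22 were at 1 CPM or more in every TL2 line. Below MSC in every TL2 line were 8 of them, and 0 were above. Over all tested genes 3.26% were called lower and 14.8% lay below MSC in every line. Fitted changes were mixed, 13 positive and 11 negative, with a list median of 0.07. By line, the median difference from the MSC mean was -0.26, -0.34, -0.63 and 0.03 in TL2 1, 2a, 2b and 3. The summed level was 17671, 15976 and 19514 CPM in MSC and 14051, 11371, 9218 and 11040 CPM in TL2. Vim, the intermediate filament of mesenchymal cells, was at 4869.9, 4247 and 4826 CPM in MSC and 4861, 3008, 1697 and 2265 CPM in TL2. Thy1, a surface glycoprotein used to sort MSC, was at 16.9, 109 and 5.02 CPM in MSC and 0.129, 0.128, 0.138 and 0.127 CPM in TL2. It fell by 8.30 in log2 units (SE 1.19, adjusted p = 0.0154), a call lost without MSC 1. Cxcl12, the chemokine by which marrow stroma holds blood stem cells, was at 3127, 2449.7 and 6312 CPM in MSC and 112, 264, 143 and 98.4 CPM in TL2. It fell by 4.68 (SE 0.49, adjusted p = 0.00759), and every TL2 line was below every MSC culture. In bulk RNA, fewer cells of a type and less RNA per cell cannot be told apart.

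Markers of other cell types varied between libraries. The blood cell marker Ptprc was at 0.410, 0 and 0 CPM in MSC and 0.193, 0.0638, 0 and 0.127 CPM in TL2, too low to be tested. Of 24 macrophage and blood markers, 7 were tested and the whole list summed to between 17.5 and 45.8 CPM in MSC and between 23 and 67.7 CPM in TL2; H2-Aa, H2-Ab1, Hba-a1 and S100a9 had no count in any TL2 line. Of the 7 tested, 1 was called higher and 1 lower, against 1.5% and 3.26% of all tested genes. Cd14, a monocyte coreceptor on the same list, was at 2.79, 3.48 and 4.50 CPM in MSC and 32, 12.8, 17.4 and 25.8 CPM in TL2. It rose by 2.61 (SE 0.40, adjusted p = 0.0178), a call lost without any 1 MSC culture. H2-Ab1, at 6.32, 5.61 and 4.12 CPM in MSC, was called lower (adjusted p = 0.0133), a call also lost without any 1 MSC culture. Summed over 12 markers each, endothelial genes reached 60.7 to 110 CPM in MSC and 6.53 to 22.1 in TL2, most of it in MSC from Eng, which MSC also express, and epithelial genes 4.57 to 109 and 9.77 to 313. The epithelial sums rested on Krt19 in MSC 2 (37.2, 107 and 3.90 CPM in MSC 1 to 3) and on Krt18 in TL2 3 (6.63, 0.191, 1.17 and 250.1 CPM in TL2), both keratins of simple epithelia and neither called. Neural markers summed to 29.6 to 87.3 and 18.5 to 99.1 CPM, and 7 adipocyte markers to 1.23 to 4.27 and 0.0636 to 0.322. The part of such cells in the results was not tested.

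**Figure D1:**
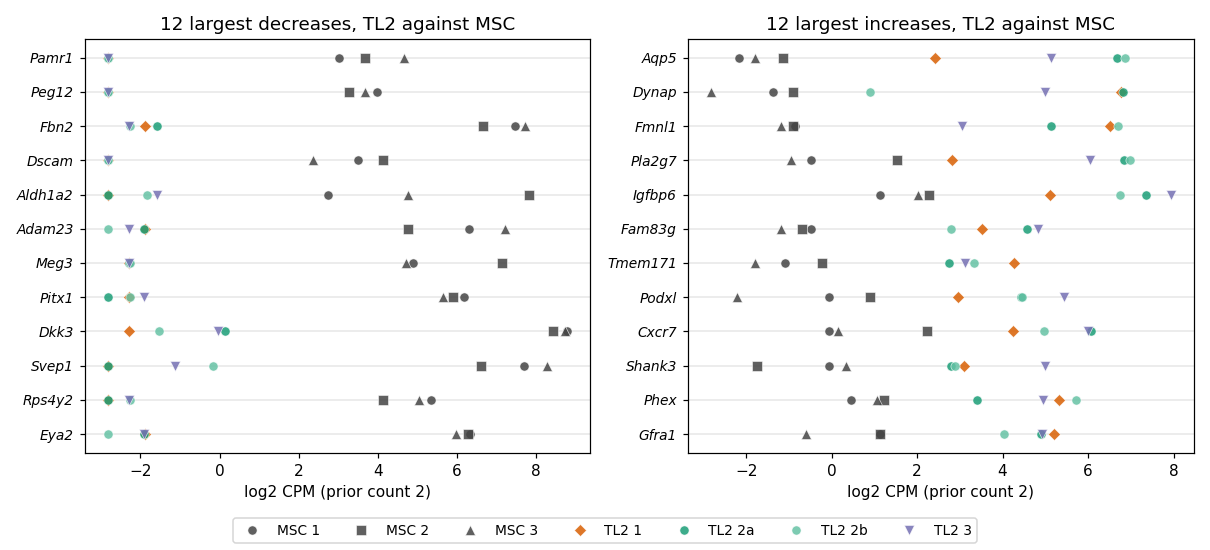
Expression of the 12 largest decreases (left) and 12 largest increases (right) among called genes whose groups did not overlap and whose higher group averaged 10 CPM or more, as log2 CPM with a prior count of 2 on the horizontal axis; each symbol is 1 library. The decreases collapse to near 0 counts in all 4 TL2 lines, while the increases spread widely among the lines, as Dynap at 1.72 CPM in TL2 2b and 113 CPM in TL2 2a shows.

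Genes outside the naming rule of the methods were chosen after their values were seen; they are Vim, Fn1, Col1a2, Acta2, Tagln, Cnn2, Myl9, Srf, Fabp5, Runx2, Twist1, Prrx1, Hoxc10, H19, Tcf7, Tcf7l1, Notum, Dkk2, Myf5, Myl1, Irf7, H2-K1, Pvt1, Pcdhgc3, Casp1, Casp4, Arhgap42, Gpr180, Abcc4 and the members listed by name alone.

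The largest decreases were genes of limb identity, microfibrils, adhesion and imprinted loci that fell to a few counts in every TL2 line. Pitx1 (chromosome 13, 55825044 to 55836190 in GRCm38.p6), the homeobox factor of hindlimb identity, was at 71.9, 58.9 and 49.8 CPM in MSC and 0.0644, 0, 0.0688 and 0.127 CPM in TL2. It fell by 9.67 (SE 0.51, adjusted p = 0.000469). Eya2, a transcriptional coactivator with a phosphatase domain, was at 79.9, 76.9 and 63 CPM in MSC and 0.129, 0.128, 0 and 0.127 CPM in TL2 and fell by 9.43 (SE 0.49, adjusted p = 0.000469). Both were even among the MSC and near 0 in each TL2 line. Fbn2, a fibrillin of the microfibrils on which elastic fibres form, was at 175, 100.4 and 209 CPM in MSC and 0.129, 0.191, 0.0688 and 0.0636 CPM in TL2, the smallest adjusted p of all genes named (log2 change -10.37, SE 0.45, adjusted p = 0.000302). Dkk3, a secreted member of the Dickkopf family, went from 441, 341 and 424 CPM to 0.0644, 0.957, 0.206 and 0.827 CPM (log2 change -9.58, SE 0.71, adjusted p = 0.00196).

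Svep1, an extracellular adhesion protein, was at 206, 96.6 and 309 CPM in MSC and 0, 0, 0.757 and 0.318 CPM in TL2, and Adam23, an integrin-binding member of the ADAM family without protease activity, at 78.3, 27.1 and 149 in MSC and 0.129, 0.128, 0 and 0.0636 CPM in TL2. No count in any TL2 line was seen for Pamr1, Peg12 and Dscam, which makes them at least 316-fold, 256-fold and 228-fold lower than in MSC, with 3 counts over the group as the limit. Aldh1a2, which makes retinoic acid, was uneven already among MSC, at 6.56, 225 and 27.1 CPM, and at 0, 0, 0.138 and 0.191 CPM in TL2 (log2 change -9.90, SE 1.57, adjusted p = 0.0208), a call lost without MSC 3 or TL2 2b. Rps4y2 had 2 counts over TL2, a ratio of 925 (95% counting interval 256 to 7649); ribosomal protein genes have near-identical copies, so its counts are uncertain.

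The largest increases were uneven between lines. Aqp5 (chromosome 15, 99591028 to 99594829), a water channel of secretory epithelia, was at 0.0820, 0.316 and 0.150 CPM in MSC and 5.22, 101, 116 and 34.7 CPM in TL2. TL2 1 was the lowest of the lines, at a small part of the level of TL2 2a and 2b, and no line overlapped MSC (log2 change 8.39, SE 1.35, adjusted p = 0.0213). Fmnl1, a formin that extends actin filaments, was at 0.410, 0.395 and 0.300 CPM in MSC and 91.4, 35, 103 and 8.15 CPM in TL2 (log2 change 7.30, SE 1.06, adjusted p = 0.0156). Dynap was at 0.246, 0.395 and 0 in MSC and 108, 113, 1.72 and 31.9 CPM in TL2 (adjusted p = 0.0409), with TL2 2b far below the other lines. Pla2g7, a secreted phospholipase that cleaves platelet-activating factor, was at 0.574, 2.76 and 0.375 in MSC and 6.95, 114, 127 and 65.7 CPM in TL2 (adjusted p = 0.0391).

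Igfbp6, a binding protein with preference for insulin-like growth factor II, was at 2.05, 4.74 and 3.90 CPM in MSC and 34.4, 164, 108 and 244 CPM in TL2 and rose by 5.26 (SE 0.75, adjusted p = 0.0154). Gfra1, a receptor for the neurotrophic factor GDNF, rose more evenly, from 2.05, 2.05 and 0.525 to 36.5, 29.9, 16.2 and 30 CPM (log2 change 4.19, SE 0.57, adjusted p = 0.0133). Podxl, a sialylated surface mucin, rose from 0.820, 1.74 and 0.0750 to 7.66, 21.6, 21.9 and 43.2 CPM. Cxcr7, a scavenging receptor of Cxcl12, rose from 0.820, 4.58 and 0.974 to 18.8, 67, 31.2 and 63.9 CPM. Calls of Aqp5, Fmnl1 and Igfbp6 were each lost without any 1 of the MSC cultures, and that of Gfra1 without MSC 1.

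A few increases held whichever library was left out. Efna1, an ephrin ligand on the cell surface, was at 2.30, 2.13 and 3.75 CPM in MSC and 33.4, 41.3, 36.3 and 25.5 CPM in TL2 (log2 change 3.64, SE 0.32, adjusted p = 0.00439). Kcnn4, a calcium-activated potassium channel, was at 2.46, 4.58 and 2.17 in MSC and 56.3, 38.5, 39.6 and 53.7 CPM in TL2 (log2 change 3.93, SE 0.36, adjusted p = 0.00471). Ntn1, the guidance cue netrin, was at 5.58, 3.79 and 5.32 in MSC and 31.1, 57.6, 69.6 and 65.2 CPM in TL2 (log2 change 3.51, SE 0.35, adjusted p = 0.00728). These 3 were called in all 7 fits with 1 library left out, and in each the lowest TL2 line was well above the highest MSC.

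**Figure D2:**
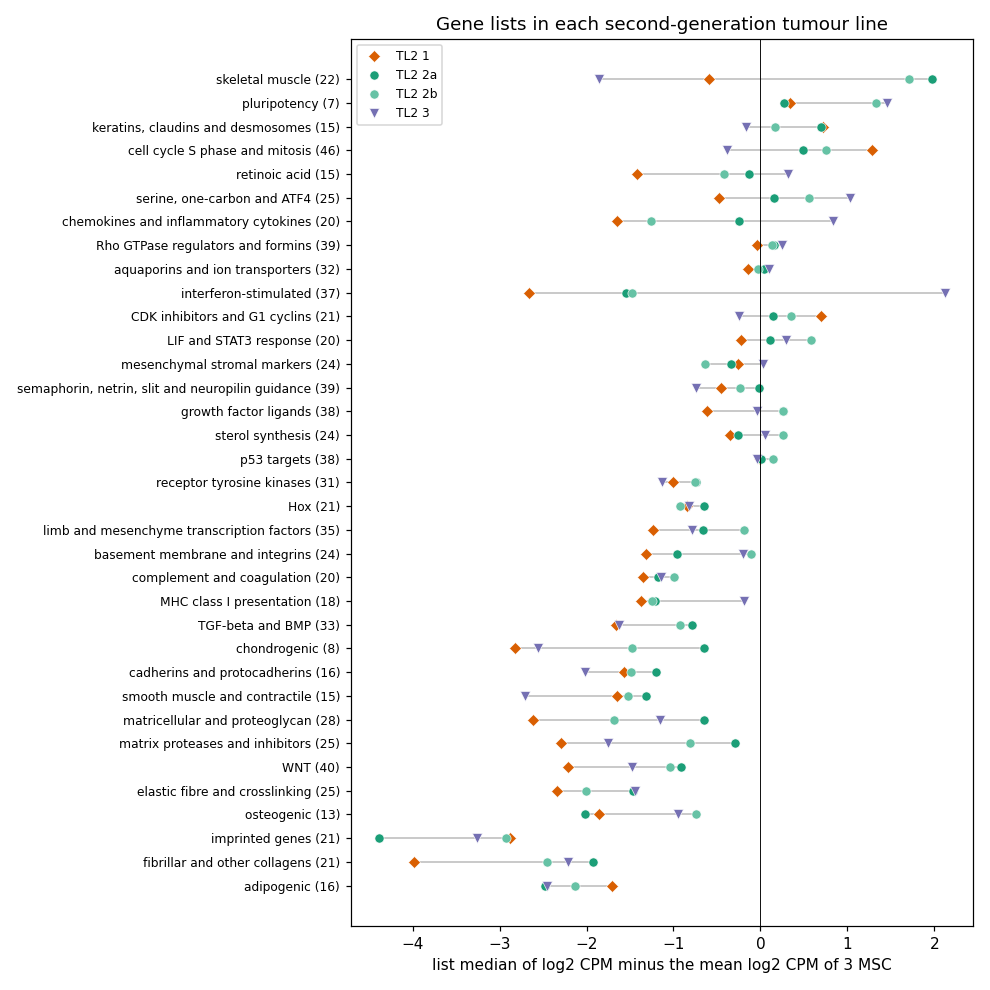
Median difference of each gene list in each TL2 line, as log2 CPM minus the mean of 3 MSC (horizontal axis, log2), with the number of tested genes in parentheses; grey bars join the lowest and highest line. Adipogenic, collagen and imprinted lists lie left of 0 in all 4 lines, while the interferon list spans -2.66 in TL2 1 to 2.12 in TL2 3.

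Collagens gave lower calls and no higher ones. Of 21 tested collagen genes, 5 were called lower and 0 higher, 16 were below MSC in every TL2 line, and the list median was -2.39, against 3.26% called lower, 14.8% below MSC in every line and a median of 0.06 over all tested genes. The medians by line were -3.99 in TL2 1, -1.93 in 2a, -2.46 in 2b and -2.22 in TL2 3, and TL2 1 was the lowest of all 7 libraries for 10 of the 21 genes. Col6a2, a chain of the microfibrillar collagen VI, was at 1440.0, 1255 and 3397 CPM in MSC and 28.5, 245, 126 and 80.2 CPM in TL2 and fell by 4.08 (SE 0.73, adjusted p = 0.0262). Col5a3, a chain of the fibrillar collagen V, was at 57.5, 64.9 and 78.5 in MSC and 5.60, 18.9, 3.44 and 4.20 CPM in TL2 and fell by 3.06 (SE 0.61, adjusted p = 0.0360). Col15a1 was at 8.78, 5.61 and 61.8 in MSC and 0.129, 0.128, 0 and 0.382 CPM in TL2. Of the 5 collagen calls, 0, 1 and 0 remained without MSC 1, MSC 2 and MSC 3.

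Col1a1, the main chain of collagen I, divided the lines. It was at 7076, 6727 and 8943 CPM in MSC and 3.54, 4087, 2071 and 725 CPM in TL2, so TL2 1 had lost nearly all of it while TL2 2a, the highest of the lines, was still below every MSC. Across the group the log2 change was -2.14 (SE 1.40, adjusted p = 0.385), and it was not called. Its partner chain Col1a2 was at 6006, 7394 and 8775 in MSC and 818, 3949, 4849 and 1573 CPM in TL2 (adjusted p = 0.181), lower in TL2 1 but far from absent. Fn1, fibronectin, was at 9036, 6702 and 12044 in MSC and 819, 3553, 2341 and 2923 CPM in TL2 (log2 change -1.94, SE 0.46, adjusted p = 0.0589); all 4 lines were below MSC and the gene missed the threshold.

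Of elastic fibre and crosslinking genes, 5 of 25 were called lower and 0 higher, and 14 were below MSC in every line (median -1.59), against 3.26% and 14.8% of all tested genes, shares that also stand beside the other matrix lists below. Fbn1, the major fibrillin, was at 909, 686 and 1077 CPM in MSC and 43.3, 82.7, 21.6 and 75.8 CPM in TL2 and fell by 3.99 (SE 0.47, adjusted p = 0.00971). Plod2, which hydroxylates lysines for collagen crosslinks, was at 278, 424 and 252 in MSC and 66, 87.2, 78.9 and 91.6 CPM in TL2 and fell by 1.97 (SE 0.23, adjusted p = 0.00934), with a narrow spread among lines. Of the 5 calls, 2, 3 and 2 remained without MSC 1, 2 and 3. Among 28 matricellular and proteoglycan genes 3 were called lower and 13 were below MSC in every line (median -1.34); they included Tnc, the adhesion-modulating tenascin, at 895, 1629.8 and 764 in MSC and 335, 170.2, 148 and 169 CPM in TL2 (log2 change -2.41, SE 0.38, adjusted p = 0.0208). Among 25 matrix proteases and inhibitors 2 were called lower, Adam23 and Mmp23. Of 24 basement membrane and integrin genes, 4 were called lower and 1 higher; Itga9, an integrin chain that binds tenascin, was at 15.8, 10.1 and 18.4 in MSC and 0.0644, 0.447, 0.138 and 0.382 CPM in TL2.

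**Figure D3:**
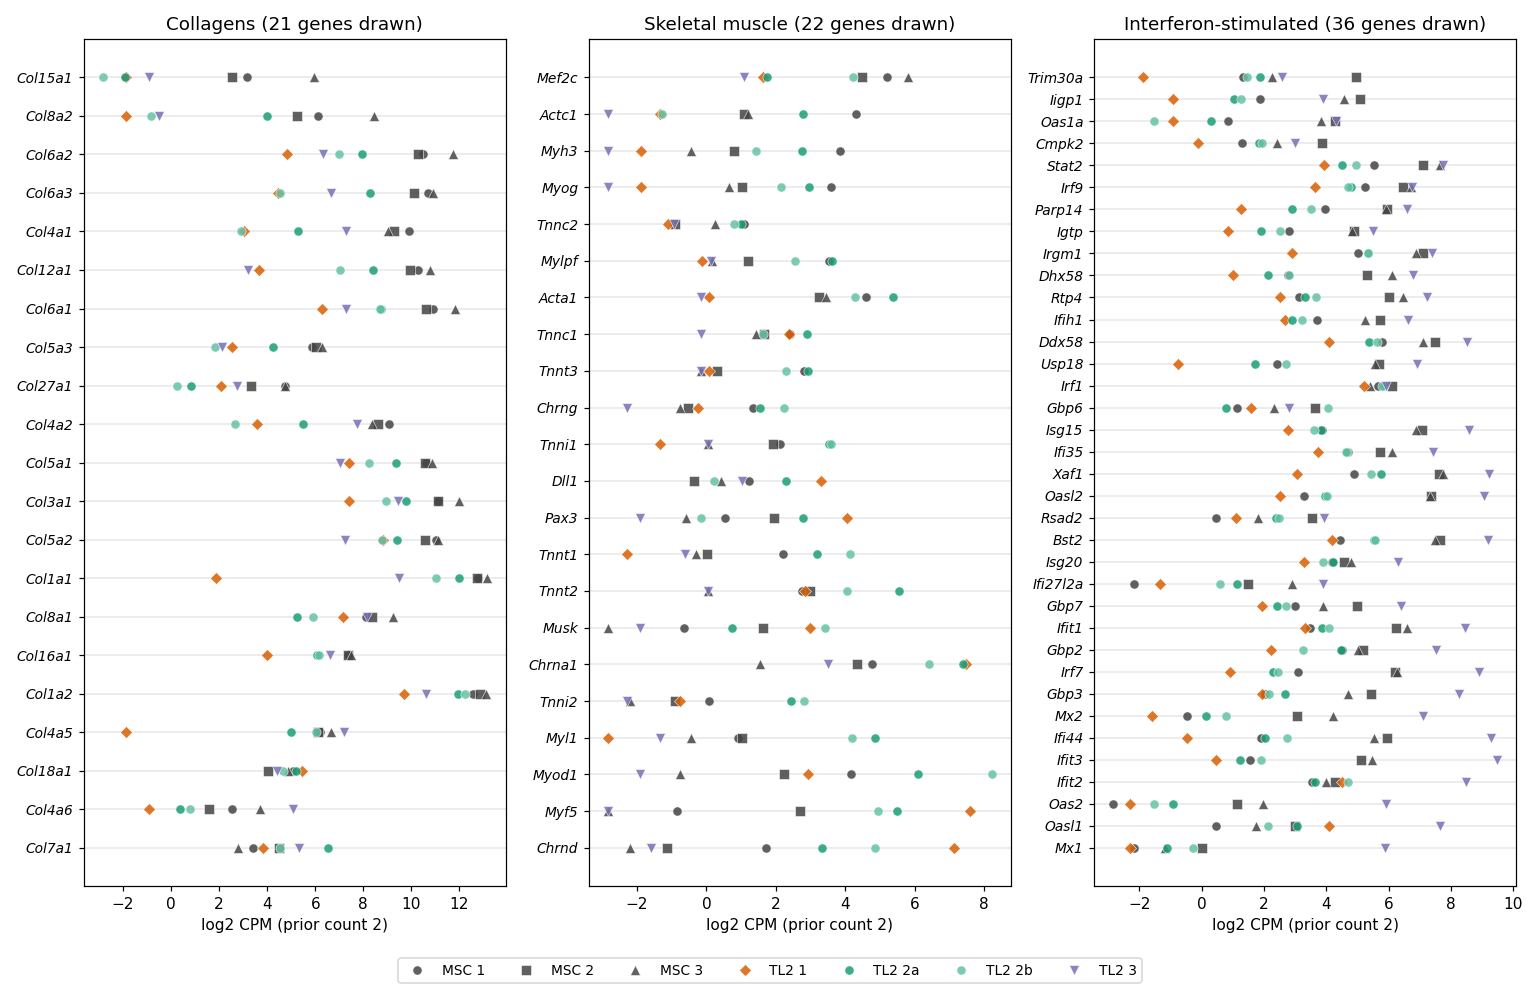
Tested collagen (21), skeletal muscle (22) and interferon-stimulated genes (36 of 37 drawn) as log2 CPM with a prior count of 2 (horizontal axis), 1 symbol per library, ordered by fitted log2 change. Collagens shift left in most TL2 lines, muscle genes are high in TL2 2a and 2b and low in TL2 3, and interferon genes are highest in TL2 3 for 32 of 37 genes.

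The contractile list lay below MSC in all 4 lines by its median. Of 15 tested smooth muscle and contractile genes, 6 were called lower, 0 higher and 11 were below MSC in every line (median -1.31), against 3.26% and 14.8% of all tested genes. Mylk, the kinase that activates smooth muscle myosin, was at 265, 207 and 199 CPM in MSC and 27.8, 38.5, 26.8 and 34 CPM in TL2 and fell by 2.82 (SE 0.21, adjusted p = 0.00189), and the groups lay far apart. Lmod1, which nucleates actin filaments, was at 62.9, 30.4 and 31.6 in MSC and 0.193, 2.04, 0.894 and 0.382 CPM in TL2 (log2 change -5.55, SE 0.77, adjusted p = 0.0139). Cald1, the actin-binding caldesmon, was at 1644, 1728 and 1458 in MSC and 530.2, 676, 559 and 834 CPM in TL2, a smaller step (log2 change -1.31, SE 0.20, adjusted p = 0.0170). The called genes also included Acta2, the actin of smooth muscle, at 6168, 3222 and 4465 CPM in MSC and 314, 1011, 239 and 146 CPM in TL2, and Tagln, at 1487, 1148 and 937 in MSC and 109.5, 121, 20.6 and 32.1 CPM in TL2. Without MSC 1, 2 and 3, 1, 2 and 1 of the 6 calls remained.

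Many genes of this list are known targets of serum response factor, which binds the CArG box. The box was searched by its strict consensus, which reads alike on both strands, in 300 bases of promoter (250 before to 50 after the start) of RefSeq genes on GRCm38.p6. Of 17 listed genes 13 had a promoter entry, and 3 of them held a box, Cnn2, Myl9 and Srf. Of all 32851 promoters 1.63% held a box, a share that counts promoters and not genes. As the list holds known targets of the factor, a higher share may follow from its choice, which was not tested. A match is a description of these letters and not a binding site, and a box outside the window would be missed. Promoters of Cnn2 and Myl9 are printed because both carry 1 box and differ in their call; capitals mark the box. They lie at chr10:79988350-79988649 and chr2:156775214-156775513, both on the plus strand, with the box beginning at position -56 and -161 from the start.
Cnn2: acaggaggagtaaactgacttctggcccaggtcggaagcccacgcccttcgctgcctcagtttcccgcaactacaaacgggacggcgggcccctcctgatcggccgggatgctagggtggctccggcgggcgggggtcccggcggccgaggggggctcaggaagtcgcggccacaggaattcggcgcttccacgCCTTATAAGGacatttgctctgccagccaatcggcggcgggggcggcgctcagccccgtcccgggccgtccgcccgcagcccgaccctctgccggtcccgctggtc
Myl9: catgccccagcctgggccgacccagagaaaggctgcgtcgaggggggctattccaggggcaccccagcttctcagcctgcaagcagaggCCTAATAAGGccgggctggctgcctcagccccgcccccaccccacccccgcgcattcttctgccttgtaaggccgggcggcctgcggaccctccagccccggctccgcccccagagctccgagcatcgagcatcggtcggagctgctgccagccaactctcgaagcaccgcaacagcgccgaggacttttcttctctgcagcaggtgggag
Cnn2, an actin-binding calponin, was at 1257, 1109 and 1162 CPM in MSC and 373, 567, 571 and 379.8 CPM in TL2 and fell by 1.31 (SE 0.21, adjusted p = 0.0209). Myl9, the regulatory light chain that Mylk phosphorylates, was at 712, 508 and 652 in MSC and 101, 221, 51.7 and 5.92 CPM in TL2, below MSC in every line and lowest in TL2 3, and was not called (log2 change -2.72, SE 0.92, adjusted p = 0.131). Srf itself was at 150.4, 161 and 132 in MSC and 168, 153, 161 and 86.4 CPM in TL2 (adjusted p = 0.908).

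Of 16 tested fat lineage genes, 7 were called lower and 0 higher (median -2.82), against 3.26% and 1.5% of all tested genes. Lpl, the lipase that frees fatty acids from lipoproteins, was at 561, 242 and 553 CPM in MSC and 2.32, 0.766, 1.31 and 1.15 CPM in TL2 and fell by 8.34 (SE 0.52, adjusted p = 0.00146). Pparg, the master regulator of fat cells, was at 60.9, 34.2 and 75.2 in MSC and 5.73, 3.51, 9.49 and 4.01 CPM in TL2 and fell by 3.32 (SE 0.43, adjusted p = 0.0129). Zfp423, which commits cells to the fat lineage, was at 9.11, 4.66 and 17 in MSC and 0.0644, 0.191, 0.0688 and 0.382 CPM in TL2. Not every member was lower: Fabp5, a fatty acid carrier found in many cell types, was at 88.3, 80.3 and 61.5 CPM in MSC and 212, 154, 151 and 115 CPM in TL2, above MSC in every line without a call (adjusted p = 0.0585). Of the 7 calls, 1, 4 and 1 remained without MSC 1, 2 and 3.

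Bone lineage genes moved both ways, 2 of 13 called higher and 1 lower (median -1.82), against 1.5% and 3.26% of all tested genes. Alpl, the alkaline phosphatase of osteoblasts, was at 55.8, 112 and 301 CPM in MSC and 0.0644, 1.91, 0.138 and 0.573 CPM in TL2 and fell by 7.83 (SE 1.09, adjusted p = 0.0139). Spp1, osteopontin, was at 891, 1254 and 1338 in MSC and 3090.3, 2758, 3965 and 5677 CPM in TL2 and rose by 1.74 (SE 0.30, adjusted p = 0.0255). Phex, a peptidase of osteoblasts and osteocytes, rose from 1.23, 2.21 and 1.95 to 40.1, 10.5, 52.7 and 30.9 CPM. All 3 calls were lost without MSC 1 or MSC 3. Runx2, the osteoblast master factor, was at 108, 104 and 114 in MSC and 80.7, 109, 72.8 and 54.1 CPM in TL2 (adjusted p = 0.287).

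Cartilage genes gave 2 lower calls among 8 tested, against 3.26% of all tested genes. Col11a1, a minor cartilage collagen, was at 205, 160.3 and 267 CPM in MSC and 0.386, 0.128, 0.0688 and 1.02 CPM in TL2, and Col2a1, the major one, at 199, 38.2 and 385 in MSC and 0.129, 1.09, 0.550 and 1.78 CPM in TL2 (adjusted p = 0.00343 and 0.0129). Both had few counts in each TL2 line.

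Transcription factors of limb and mesenchyme gave 10 lower calls among 35 tested and 0 higher calls, against 3.26% and 1.5% of all tested genes. Beside Pitx1 and Eya2, Tbx18, a T-box factor of limb and body wall mesenchyme, fell by 2.41 (SE 0.24, adjusted p = 0.00728), from 117, 78.6 and 104 to 16.2, 20.7, 23.8 and 14.3 CPM. The other calls were Tbx15, Shox2, Meis2, Ebf1, Ebf2, Zeb2 and Snai1. Of the 10, 3, 4 and 3 remained without MSC 1, 2 and 3. Of mesenchymal factors on the stromal marker list, Twist1 was at 67.5, 75.7 and 91 CPM in MSC and 85.3, 56.4, 97.2 and 148 CPM in TL2 (adjusted p = 0.584). Prrx1 was at 494, 449 and 479 CPM in MSC and 82.5, 72.8, 108 and 428 CPM in TL2, near MSC in TL2 3 and lower in the other lines (adjusted p = 0.204).

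Of 34 Hox genes, which mark position along the body, 21 were tested, 4 were called lower and 0 higher (median -0.44). Over all tested genes 3.26% were called lower and 1.5% higher. Hoxb2 and Hoxb3 had no count in any TL2 line and were at least 132-fold and 160-fold lower than in MSC, where they stood at 5.09, 4.90 and 9.15 and 5.50, 3.79 and 13.8 CPM. Hoxa3 fell by 1.54 (SE 0.28, adjusted p = 0.0262), from 17.5, 13.4 and 15 to 4.70, 6.70, 5.23 and 4.39 CPM. All 4 calls were lost without each of MSC 1, 2 and 3. Hoxc10 was at 119, 95.7 and 87.9 CPM in MSC and 76.9, 98.2, 57.2 and 56.3 CPM in TL2.

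Imprinted genes, expressed from 1 parental copy, gave 6 lower and 0 higher calls among 21 tested (median -1.92). Over all tested genes 3.26% were called lower and 1.5% higher. Meg3, a maternally expressed long noncoding RNA, was at 29.5, 140.0 and 25.9 CPM in MSC and 0.0644, 0.0638, 0.0688 and 0.0636 CPM in TL2 and fell by 9.78 (SE 0.87, adjusted p = 0.00447). Rian, from the same locus, was at 24.9, 120.5 and 14.1 in MSC and 0.0644, 0.0638, 0.0688 and 0.191 CPM in TL2. Slc38a4, an amino acid transporter expressed from the paternal copy, fell from 162, 108 and 92.1 to 0.258, 1.91, 3.44 and 1.53 CPM (log2 change -6.08, SE 0.70, adjusted p = 0.00934). Of the 6 calls 2, 6 and 3 remained without MSC 1, 2 and 3.

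Igf2 and H19, neighbours with opposite imprints, parted between the lines. Igf2, the growth factor, was at 170.4, 46.8 and 359 CPM in MSC and 395, 0.255, 0.619 and 0.445 CPM in TL2, so TL2 1 alone was above 1 CPM among the lines. H19, the noncoding RNA, was at 441, 201 and 254 in MSC and 0.129, 1992, 4928 and 1.59 CPM in TL2, high in TL2 2a and 2b and nearly absent in TL2 1 and TL2 3. Neither was called (adjusted p = 0.815 and 0.543). The strand setting of the counting is not given in the sources used here, so reads of overlapping antisense transcripts cannot be told apart in these loci.

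WNT pathway genes gave 7 lower and 2 higher calls among 40 tested (median -1.50), against 3.26% and 1.5% of all tested genes. Sfrp1, which binds WNT ligands, was at 216, 316 and 310.3 CPM in MSC and 0.258, 1.15, 0.344 and 1.21 CPM in TL2 and fell by 8.54 (SE 0.58, adjusted p = 0.00152). Rspo2, which amplifies WNT signals through Lgr receptors, was at 168, 149.6 and 395 in MSC and 0.322, 0.957, 0.894 and 1.02 CPM in TL2 and fell by 8.20 (SE 0.56, adjusted p = 0.00152). An inhibitor and an amplifier of the pathway were thus lower together, near 1 CPM or less in every line. Not every secreted modulator followed: Notum, which inactivates WNT ligands, rose from 0.246, 0.237 and 0.60 to 1.42, 7.98, 9.77 and 3.18 CPM (adjusted p = 0.0470), and Dkk2, a Dickkopf protein, was at 0.0820, 0.395 and 0.150 CPM in MSC and 5.73, 0.191, 1.03 and 288 CPM in TL2, high in TL2 3 (adjusted p = 0.141). Of transcription factors that end the pathway, Tcf7 rose from 5.41, 3.63 and 5.25 to 21.7, 33.9, 25 and 21.1 CPM and Tcf7l1 fell from 77.5, 70 and 109 to 11.6, 18.8, 19.9 and 10.6 CPM. Of the 9 calls 3, 5 and 3 remained without MSC 1, 2 and 3.

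Receptors and ligands of other growth factors changed gene by gene. Of 31 receptor tyrosine kinases, 5 were called lower and 1 higher, against 3.26% and 1.5% of all tested genes. These shares also stand beside the ligand count and the TGF-beta and BMP count below. Egfr was at 59, 48 and 89.4 CPM in MSC and 10.3, 5.17, 8.46 and 8.91 CPM in TL2 and fell by 2.99 (SE 0.32, adjusted p = 0.00759). Areg, a ligand of this receptor, rose from 0.164, 0.237 and 0.225 to 3.16, 2.04, 2.41 and 2.55 CPM (log2 change 3.55, SE 0.47, adjusted p = 0.0129). Epha2, a receptor of the ligand Efna1, rose from 30.6, 78.8 and 26.3 to 329.9, 205, 209 and 298 CPM (log2 change 2.53, SE 0.45, adjusted p = 0.0262). Kit had 1 count over the TL2 lines, a ratio of 180 (95% counting interval 31.7 to 7181). Fgf7, a ligand that stroma supplies to epithelia, fell from 296, 219 and 338 to 38.6, 77.3, 31.8 and 57.1 CPM. Of 38 tested growth factor ligands 3 were called lower and 2 higher (median -0.04). Of the 6 receptor calls 1, 2 and 1 remained without MSC 1, 2 and 3, and of the 5 ligand calls 0, 1 and 0. Among 33 genes of TGF-beta and BMP signalling, 3 were called lower, among them the inhibitory Smad6 and the receptor Tgfbr2 (282, 379.6 and 304 in MSC and 99.2, 176, 167 and 94.4 CPM in TL2), and none of these calls held without any 1 MSC culture.

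Skeletal muscle genes differed widely between the lines, with no call between the groups. Of 22 tested, 0 were called. By line, the median difference from MSC was 1.97 in TL2 2a and 1.71 in 2b, -0.59 in TL2 1 and -1.86 in TL2 3. MSC differed too, with list medians relative to the MSC mean of 1.01, -0.48 and -1.17 in MSC 1, 2 and 3. TL2 3 was the lowest of all 7 libraries for 11 of the 22. Myod1, the determination factor of muscle, was at 17.8, 4.58 and 0.450 CPM in MSC and 7.40, 68.7, 298 and 0.127 CPM in TL2 (log2 change 3.62, SE 2.04, adjusted p = 0.317). Myf5, its relative, was at 0.410, 6.40 and 0 in MSC and 194, 44.9, 30.9 and 0 CPM in TL2, highest in TL2 1. Myl1, a myosin light chain of fast muscle fibres, was at 1.72, 1.90 and 0.60 CPM in MSC and 0, 28.7, 18.1 and 0.255 CPM in TL2. The receptor subunit Chrna1 of the neuromuscular synapse was at 27.4, 20.1 and 2.77 in MSC and 178, 168, 84.7 and 11.3 CPM in TL2 (adjusted p = 0.166). TL2 1 thus had Myf5 and the synaptic receptor with almost no Myl1, TL2 2a and 2b had all of these, and TL2 3 had 11.3 CPM of Chrna1 and less than 1 CPM of the others. EdgeR called 0 of the 22, with 3 at an unadjusted p under 0.05. DESeq2 called 3 (Chrna1, Chrnd and Mef2c), limma-voom 1, and the fit without TL2 2b 1, Mef2c. Over all genes DESeq2 called 933 higher and 1116 lower, limma-voom 164 and 593, and the fit without TL2 2b 101 and 276. A fit that took the title numbers as blocks called 2, Chrna1 and Chrnd, against 74 higher and 196 lower over all genes.

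Interferon-stimulated genes, the antiviral programme that interferon signals turn on, also differed widely between the lines. Of 37 tested 0 were called. The median difference from MSC was 2.12 in TL2 3 and -2.66, -1.55 and -1.48 in TL2 1, 2a and 2b. TL2 3 was the highest of all 7 libraries for 32 of the 37 genes and TL2 1 the lowest for 30. Ifit2, which inhibits translation of viral RNA, was at 11.4, 19.4 and 15.7 CPM in MSC and 22.7, 12.4, 25.7 and 354 CPM in TL2, and Oasl1 at 1.23, 7.82 and 3.22 in MSC and 16.7, 8.23, 4.20 and 199 CPM in TL2 (adjusted p = 0.229 and 0.183). Irf7, which sustains the interferon loop, was at 8.37, 73.6 and 76.2 CPM in MSC and 1.74, 4.72, 5.30 and 479 CPM in TL2. MSC differed too: the list medians relative to the MSC mean were -1.48, 0.86 and 0.65 in MSC 1, 2 and 3. EdgeR called 0 of the 37 genes with all 7 libraries, with 1 at an unadjusted p under 0.05, as DESeq2 called 0 and limma-voom 0. Without TL2 3, 4 were called, all lower in the 3 other lines, among them Irf7.

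Of 18 tested genes of MHC class I presentation 2 were called lower and 0 higher, against 3.26% and 1.5% of all tested genes. Both genes called lower were low also in TL2 3, where the interferon list was high. Psmb8, a catalytic subunit of the immunoproteasome, was at 26.7, 84.3 and 79.2 CPM in MSC and 1.42, 4.47, 4.95 and 5.73 CPM in TL2 and fell by 3.93 (SE 0.57, adjusted p = 0.0158). Psmb9, another such subunit, was at 1.80, 7.19 and 11.6 in MSC and 0.322, 0.511, 0.894 and 1.02 CPM in TL2 (adjusted p = 0.0462). In TL2 3, Psmb8 was close to its level in 2a and 2b. The heavy chain H2-K1 was at 83.1, 42.8, 74.6 and 364 CPM in TL2, highest in TL2 3. The call of Psmb8 was lost without MSC 2 or MSC 3, and that of Psmb9 without any 1 MSC culture.

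Cell cycle genes had mostly positive changes and no call. Of 46 genes of S phase and mitosis, 45 had positive changes and 0 were called, with a median of 0.62. Over all 12653 tested genes 6772 had positive changes. The list median relative to the MSC mean was 1.28, 0.48, 0.75 and -0.39 in TL2 1, 2a, 2b and 3. In MSC 1, 2 and 3 it was 0.22, 0.33 and -0.58. The summed level of the list was 4675, 4972 and 2796 CPM in MSC and 9670, 5800, 6673 and 3114 CPM in TL2. TL2 1 was the highest of all libraries for 40 of the 46, and TL2 3 lay near MSC 3. Cdt1, which licenses replication origins, was at 40.5, 54.2 and 33 CPM in MSC and 78.3, 101, 136 and 70.3 CPM in TL2 (log2 change 1.18, SE 0.29, adjusted p = 0.0647). Cdk6, a kinase of G1, rose from 5.66, 9.80 and 5.47 to 23.2, 22.3, 24.1 and 30 CPM and Ccnd2, a cyclin that partners it, fell from 407, 438 and 427 to 95.5, 35.6, 127 and 103 CPM (adjusted p = 0.0208 and 0.0256). Both calls were lost without MSC 1 or MSC 3. Of the 46 genes 7 had an unadjusted p under 0.05, DESeq2 called 3 and limma-voom 0, and edgeR called 6 without TL2 3.

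Both groups carry the mutant allele, and of 38 tested p53 target genes 3 were called higher and 1 lower. Over all tested genes the shares were 1.5% and 3.26%. The list median was -0.07 against 0.06 over all tested genes. Eda2r, a death receptor of the TNF family, was at 0.164, 0.237 and 0.225 CPM in MSC and 2.90, 1.91, 2.54 and 9.67 CPM in TL2 (adjusted p = 0.0290), and Ddit4l, an inhibitor of mTOR, at 17.1, 18.7 and 15 in MSC and 1.80, 5.17, 1.10 and 3.18 CPM in TL2 (adjusted p = 0.0367). Cdkn1a, which encodes the p21 inhibitor, was at 22.9, 21.1 and 10.9 in MSC and 68.6, 77.2, 49.2 and 34 CPM in TL2, higher in every TL2 line and just short of a call (log2 change 1.65, SE 0.38, adjusted p = 0.0548). Mdm2 was at 57.2, 63.6 and 49.5 in MSC and 69.9, 59.4, 65.7 and 67.4 CPM in TL2. Cdkn2a, which encodes p16 and Arf, was kept at 474, 253, 388 and 558 CPM in TL2 against 444, 376 and 491 CPM in MSC (adjusted p = 0.909). All 4 calls were lost without each of the MSC cultures.

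Of the pluripotency factors that LIF medium supports in stem cells, 7 of 25 were tested and 1 was called higher. Over all tested genes 1.5% were called higher and 3.26% lower, shares that also stand beside the LIF and STAT3 list below. Klf5 rose from 3.69, 6.95 and 2.17 to 25.2, 42.5, 35.8 and 10.8 CPM (adjusted p = 0.0470), a call kept without TL2 3 and lost without any other library. Sox2 was at 0, 0 and 0.0750 CPM in MSC and 10.7, 0.894, 6.95 and 80.8 CPM in TL2, with 1 count over the MSC and a ratio of 964 (95% counting interval 173 to 38097); the lines spanned a wide range and it missed the threshold (adjusted p = 0.0531). Nanog was at 0.451, 0.957, 3.30 and 1.85 CPM in TL2. Of 20 LIF and STAT3 response genes 2 were called higher and 1 lower. Pim3, a STAT3 target kinase, rose from 33.5, 41.2 and 26 to 127, 90.4, 106 and 163 CPM (adjusted p = 0.0156). Pim1 rose from 12.9, 19.6 and 10.3 to 35.8, 34.9, 61.6 and 44.5 CPM (adjusted p = 0.0336). Jak1, a kinase that acts at cytokine receptors, fell from 312, 318 and 295 to 183, 170.2, 204 and 214 CPM (adjusted p = 0.0494). LIF was in the medium of the tumour-derived cells, and its part was not tested. Without MSC 1, 2 and 3, 0, 1 and 0 of these 3 calls remained.

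**Figure D4:**
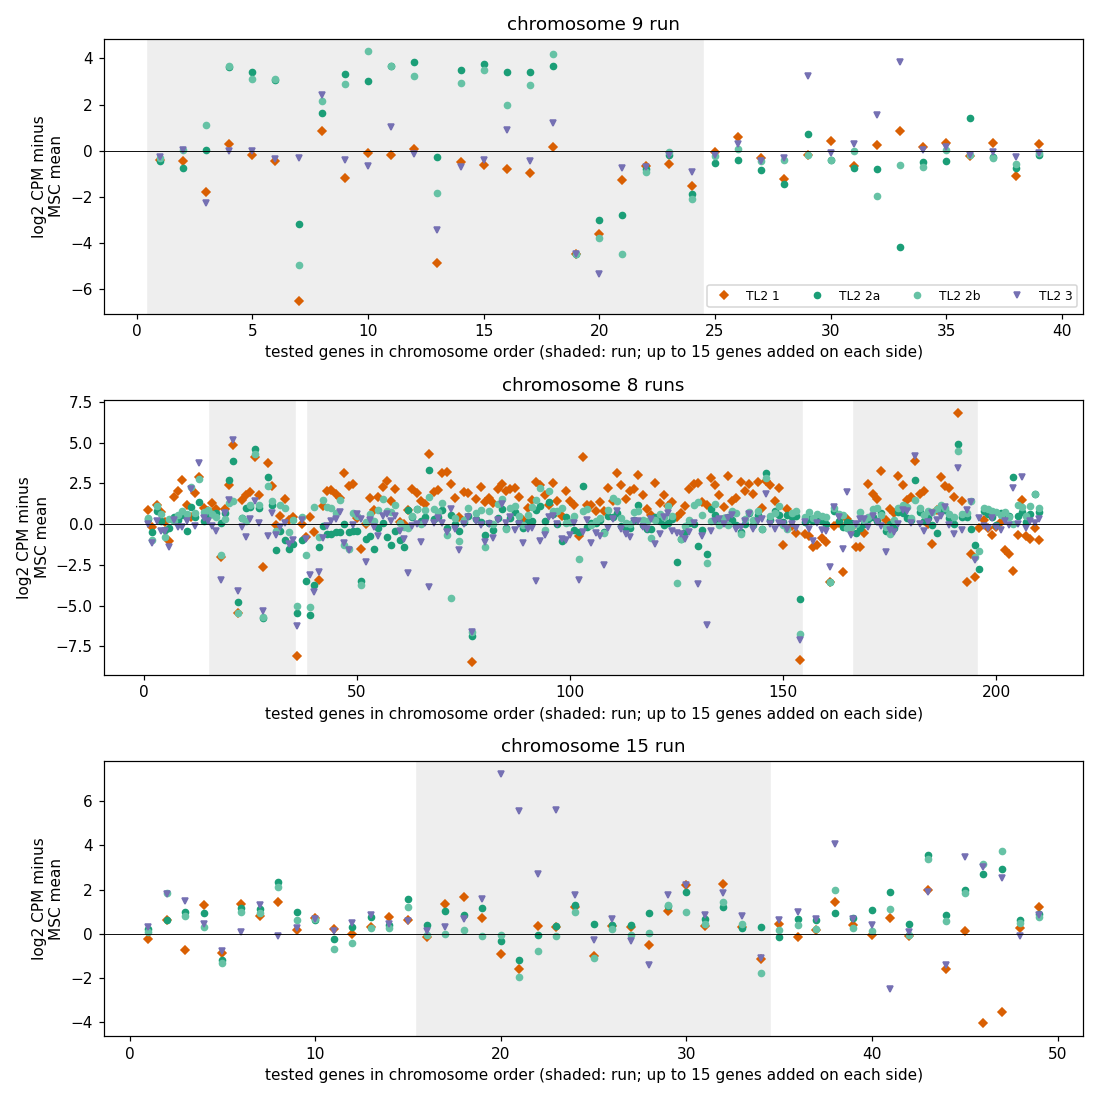
Difference from the MSC mean (vertical axis, log2) of neighbouring tested genes in chromosome order (horizontal axis, gene number) around runs on chromosomes 9, 8 and 15, with runs shaded. On chromosome 9 a block of genes sits near 3 log2 units in TL2 2a and 2b, with most of its genes near 0 in the other lines, on chromosome 8 TL2 1 lies above the other lines across long runs, and on chromosome 15 a few genes stand high in TL2 3.

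Some differences followed the order of genes on chromosomes. A run was a stretch in which the median difference of 15 neighbouring tested genes from the MSC mean passed 1.5 on the log2 scale in a line, and 33 runs were found, 20 in TL2 1, 2 in 2a, 4 in 2b and 7 in TL2 3. Copy number was not measured. The count depends on the window, as given in the closing section.

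The strongest run of higher genes lay on chromosome 9 and was shared by TL2 2a and 2b. Within it, 13 genes between 4294793 and 8042875 were more than 2-fold above the MSC mean in both lines. Their median log2 differences were 3.42 in 2a and 3.12 in 2b, against -0.19 in TL2 1 and -0.17 in TL2 3. These genes were picked by their levels in 2a and 2b, so high medians there follow in part from the choice. Yap1, the coactivator of the Hippo pathway, was at 201, 191 and 170.1 CPM in MSC and 94.5, 1998, 1351 and 135 CPM in TL2. Birc2, an inhibitor of apoptosis, was at 16.7, 15.9 and 15.2 in MSC and 10.2, 215, 181 and 12 CPM in TL2. The block also held Dcun1d5 at 76.8, 1048, 696 and 65.4, Dync2h1 at 10.4, 154, 154 and 24.1, Aasdhppt at 29.2, 298, 309.5 and 23.9 and Pdgfd at 17.4, 152, 375 and 11.8 CPM in TL2. Neighbours inside or just beyond the block were not all high: Casp1 was at 0, 1.28, 0.275 and 10.4 CPM and Arhgap42 at 16.5, 5.68, 1.65 and 23.7 CPM in TL2, below MSC in 2a and 2b. Across the group none of the genes named from the block was called higher (Yap1 adjusted p = 0.239). TL2 1 and TL2 3 were near MSC for most of the 13, but not all: Casp4, an inflammatory caspase, was at 12.9, 22.2, 32.1 and 38.4 CPM in TL2, highest in TL2 3.

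TL2 1 carried long runs of higher genes on chromosome 8. In 4 runs between 86624043 and 115706894, 145 of 165 genes were above the MSC mean in TL2 1, with a median difference of 1.6. The runs were picked by their medians in this line, so both values are partly fixed by the rule. Medians in the other lines were 0.11 in 2a, 0.60 in 2b and -0.08 in TL2 3. The same line had a run of lower genes nearer the start of chromosome 8. Tgds, Gpr180 and Abcc4, in a run of lower genes on chromosome 14 (102976581 to 118981702), were nearly lost in TL2 1 alone. Tgds was at 18, 19.1 and 15.5 CPM in MSC and 0, 13.3, 18.2 and 18.5 CPM in TL2, Gpr180 at 0.129, 21.8, 28.1 and 21.8 CPM and Abcc4 at 0.322, 67.1, 41.8 and 34.2 CPM in TL2.

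In TL2 3, the run on chromosome 15 (59315092 to 73061238) rested on few genes. Fam84b was at 9.52, 10.2 and 2.32 CPM in MSC and 3.16, 4.85, 5.85 and 954 CPM in TL2, and Myc, the growth-promoting transcription factor, at 158, 145 and 178 in MSC and 203, 155, 93.1 and 1031 CPM in TL2. Pvt1, a noncoding RNA beside Myc, was at 11.8, 12.4, 9.08 and 482 CPM in TL2. Only TL2 3 was high for these genes, and Myc was not called across the group (log2 change 1.21, SE 0.81, adjusted p = 0.393). On the X chromosome, TL2 3 had a run of lower genes from 111387837 to 134305969; Srpx2 was at 159, 206 and 159 CPM in MSC and 53.9, 23.2, 19.3 and 2.16 CPM in TL2 and Tspan6 at 65, 55.2 and 54.7 in MSC and 54.5, 20.9, 33.5 and 1.72 CPM in TL2.

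Runs of lower genes at the gamma protocadherin cluster were found in all 4 lines. Its members are adhesion proteins encoded by variable first exons joined to shared constant exons, so counts per member are uncertain. Of 22 tested members, 6 were called lower and 12 were below MSC in every line, with a median of -2.37. Over all tested genes 3.26% were called lower and 14.8% were below MSC in every line. The cluster was picked by its low medians in these lines, so its counts and median follow in part from the choice. Pcdhga10 was at 7.87, 4.50 and 3.52 CPM in MSC and 0.322, 0.191, 0.275 and 0.0636 CPM in TL2 (log2 change -4.58, SE 0.62, adjusted p = 0.0129). Summed over the 22 members the level was 229, 225 and 258 CPM in MSC and 137, 229.9, 203 and 136 CPM in TL2. Most of the sum was Pcdhgc3, at 155, 161 and 181 CPM in MSC and 124, 206, 175 and 103 CPM in TL2, so it says little of the other members.

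**Figure D5:**
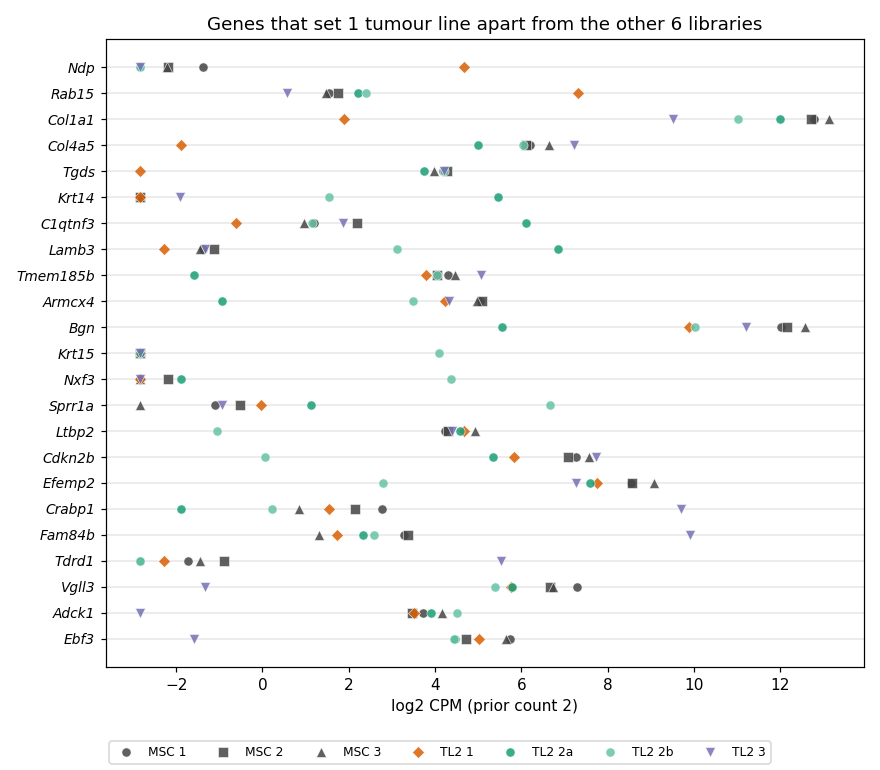
Genes that set 1 TL2 line at least 3 log2 units above or below all 6 other libraries, up to 3 drawn for each line and direction, as log2 CPM with a prior count of 2 (horizontal axis); each symbol is 1 library. In each row 1 coloured symbol stands clear of the rest, such as Col1a1 in TL2 1 at 3.54 CPM.

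Each line also had genes of its own. A gene was taken as private where a line lay at least 3 log2 units above or below all 6 other libraries, a rule that picks extremes and carries no test; 125 genes met it. TL2 3 had 48 above and 18 below, TL2 1 10 and 26, 2b 9 and 7, and 2a 3 and 4. Of the 48 above in TL2 3, 6 belong to the interferon list of 37 genes. The rule searched all 23420 counted genes, tested or not, so no share of tested genes stands beside this count. Whether the list is over-represented there was not tested. Crabp1, a binding protein of retinoic acid, was at 2.77, 0.128, 1.03 and 831 CPM in TL2, and Tdrd1, a germ cell protein, at 0.0644, 0, 0 and 45.9 CPM. Vgll3, a cofactor of TEAD factors, was low in that line, at 53.6, 54.6, 41.7 and 0.255 CPM against 156, 100.3 and 106 CPM in MSC.

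In TL2 1, Rab15, a small GTPase, was at 158, 4.47, 5.16 and 1.34 CPM. Besides Col1a1, Col4a5, a chain of basement membrane collagen IV, was lost in this line, at 0.129, 31.9, 65.1 and 148 CPM against 73.3, 69.2 and 99.4 CPM in MSC. The closely matched TL2 2a and 2b still differed. Lamb3, a chain of laminin-332, and Krt14, a basal epithelial keratin, were at 0.0644, 114, 8.53 and 0.255 and 0, 43.9, 2.75 and 0.127 CPM, highest in 2a. Bgn, the proteoglycan biglycan, was lowest in 2a, at 946, 46.6, 1045 and 2353 CPM in TL2. Every line was below MSC, where Bgn stood at 4130, 4552 and 6048 CPM. Sprr1a, a cornified envelope protein, was at 0.837, 2.04, 102 and 0.382 CPM, highest in 2b, and Cdkn2b, which encodes the p15 inhibitor, was at 56.7, 40.1, 0.894 and 213 CPM against 154, 135 and 188 CPM in MSC, nearly lost in 2b.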

How the data were processed

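RNA was sequenced as 60-base single-end reads. Per the submitters' processing notes, reads were trimmed with cutadapt, aligned to mm10 with TopHat2 2.0.10, counted with HTSeq 0.6.1p1 and tested with DESeq2 1.6.3; whether counting used strand is not given in the sources used here. Read counts, whole numbers as deposited, cover 23420 genes, and 4 columns of that table matched no sample and were not used. Libraries were grouped by title.

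Counts of 7 libraries were tested with edgeR 4.0.16 in R 4.3.3 (filterByExpr, trimmed mean of M values, robust quasi-likelihood, no covariates), checked on simulated data. Alternatives used DESeq2 1.42.0, limma-voom 3.58.1, other scaling, no filter, a replicate block, TL2 2a and 2b summed, and each library left out. Total counts of 12643520 to 15962341 set the precision; intervals and limits at 0 counts cover counting error only. No pair of libraries within a group agreed within sampling noise.

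Gene lists and members were chosen with earlier results of these data known. Genes were named by a rule: Trp53 and 12 other fixed genes; the 12 largest changes in each direction; up to 3 calls per list by adjusted p, or 2 genes where a list had none; up to 3 private genes per line and direction; and up to 4 genes in each of 8 runs. Positions and promoters are from RefSeq on GRCm38.p6, with 12612 of 12653 tested genes matched. Some genes that the rule or a list holds are not reported here.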

Additional observations from a re-analysis of the deposited data

Results flagged for a closer look

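Among the 4 TL2 lines, Dixon's test for 1 sample far from the others was applied to 131 named genes with a TL2 line of at least 1 CPM and to the medians of 40 lists. It picked 19 values, 12 of them among genes chosen for an outlying line. The other 7 came from 147 tests, no more than the 1 in 20 that chance alone picks. TL2 1 was far above the other lines in Igf2 (395 CPM), Tnc (335 CPM) and Plvap (2.96 CPM), and far below them in Rspo2 (0.322 CPM) and Cdh11 (1.16 CPM), 2 genes that were low in every TL2 line. TL2 3 was far above in Shank3 (31.6 CPM) and in the median of the MHC class I presentation list, whose difference from MSC was -0.19 there.

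The other 12 values belong to genes picked because 1 line stood apart, so the test adds nothing for them. In TL2 1 these were Ndp, at 25.1 CPM, and Tgds, at 0. TL2 2a was low in Armcx4, at 0.383 CPM. TL2 2b was high in Krt15 (16.9 CPM) and Nxf3 (20.4 CPM) and low in Ltbp2 (0.344 CPM) and Efemp2 (6.74 CPM). TL2 3 was high in Fam84b (954 CPM) and Tdrd1 (45.9 CPM) and low in Vgll3 (0.255 CPM), Adck1 (0 CPM) and Ebf3 (0.191 CPM).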

How the results depend on the processing

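No called gene changed direction when the scaling, the tool or the filter was changed, and 602 of 602 kept their sign in each of these fits; 597 to 602 did when a library was left out or 2a and 2b were summed, and no called gene named in the text changed sign. Counts of calls moved more than their direction. DESeq2 called 933 genes higher and 1116 lower, and edgeR with 2a and 2b summed 119 and 270. With 1 library left out, 3 to 374 genes were called higher and 38 to 694 lower; fewer samples enter these fits. Relative size factors gave 191 and 422, library totals alone 251 and 357 (all-gene median 0.14 instead of 0.06), limma-voom 164 and 593, and no filter 156 and 395. The numbers in the titles were not shown to pair the libraries: same-numbered MSC and TL2 deviated together with correlations of 0.24, -0.04 and 0.20 for numbers 1, 2 and 3, the highest for numbers 1 and 3 in both directions but not for number 2. With a replicate block 74 genes were called higher and 196 lower, and 70 of the 98 called genes that the rule named kept their call; the block also called 2 skeletal muscle genes, Chrna1 and Chrnd. Runs numbered 126 with a window of 9 genes and 7 with 25, and private genes 294 at a distance of 2 and 66 at 4. The causes were not tested. Depth limits the genes near 0 counts in a group, whose ratios are bounds or carry wide counting intervals.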

Other observations

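Guidance genes, with netrin and ephrins among them, moved both ways. Of 39 tested guidance genes 4 were called higher and 5 lower, against 1.5% and 3.26% of all tested genes. These shares also stand beside the lists of the next paragraph. Sema4d and Sema5a, semaphorins, were higher with Ntn1 and Efna1. Plxnc1 and Plxnd1, semaphorin receptors, were lower with Neo1, a netrin receptor family member, with Dscam and with Efnb1, an ephrin at 210.4, 143 and 206 CPM in MSC and 25.2, 29.7, 40.9 and 22.3 CPM in TL2. TL2 3 was the lowest of all 7 libraries for 19 of the 39. Of the 9 calls, 3, 5 and 3 remained without MSC 1, 2 and 3.

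Serine, one-carbon and ATF4 genes were highest in TL2 3 for 16 of 25 and lowest in TL2 1 for 14 of 25, with 1 called higher: Phgdh, the first enzyme of serine synthesis, at 316, 321 and 216 CPM in MSC and 736, 512, 497 and 797 CPM in TL2 (adjusted p = 0.0470 by edgeR), a call kept only without TL2 3 among the fits that left out 1 library. Cdh11, the cadherin of mesenchymal cells, was at 357, 347 and 789 CPM in MSC and 1.16, 3.77, 4.54 and 4.65 CPM in TL2 and was the only 1 of 16 tested cadherins and protocadherins on that list to be called. Among 24 sterol synthesis genes edgeR called 0, with 5 at an unadjusted p under 0.05, DESeq2 called 2, and edgeR called 1 with library totals alone and 1 without TL2 3.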
